A study of Mus musculus with 9 samples.

Results

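Tumor necrosis factor (TNF) and 9 genes of the NF-kB pathway that it switches on were followed in the colon of 9 mice. The 10 genes were chosen by symbol as *Tnf*, genes of NF-kB subunits and inducible genes of the same circuit (*Tnfaip3*, *Tnfaip2*, *Nfkbia*, *Nfkbiz*, *Nfkb1*, *Nfkb2*, *Relb*, *Bcl3* and *Birc3*), and all 10 were found among the 27719 genes and loci of the count table. C57BL/6J mice were divided into 3 groups, of which 3 mice each were sequenced, with 1 colon RNA library per mouse. The control group drank water, and the DSS group drank 2.5% dextran sodium sulfate (DSS), which injures the colon epithelium, for 7 days. The DSS + EA group drank the same DSS and received electroacupuncture (EA), a weak current passed through needles, at the point ST36 on each hind leg. It was given at 2 Hz and 0.2 mA for 30 minutes daily over 5 days, and it began 5 days into modeling. Per the study's methods, control and DSS mice were restrained for as long without EA, and mice were killed after the 5 days of treatment. By then the 7 days of DSS had ended. RNA came from whole colon tissue. The labels do not say whether mice shared a cage or a day, and the age of the mice was not given in the sources used here.

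TNF is a cytokine that binds its receptors on epithelial, stromal and immune cells and activates the kinase complex that frees NF-kB from its cytoplasmic inhibitors. Freed NF-kB dimers then enter the nucleus and switch on inflammatory genes together with their own brakes, among them the inhibitor IkB-alpha encoded by *Nfkbia* and the ubiquitin-editing enzyme A20 encoded by *Tnfaip3*. In the inflamed colon this circuit is known for driving chemokine and adhesion genes, and antibodies against TNF are used to treat inflammatory bowel disease.

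NF-kB dimers bind short kB motifs in DNA, so the promoters of the genes were read before their levels. RefSeq promoter windows (build GRCm38.p6, 250 bases before to 50 bases after the start site) were matched for 7 of the 10 genes, with 10 windows in all, and not for *Nfkbiz*, *Nfkb1* and *Relb*. The kB consensus, searched on both strands, was found for 4 of the 7 genes (*Bcl3*, *Nfkb2*, *Nfkbia* and *Tnfaip3*), against 5.14% of all 27025 genes of the table. *Nfkb2* had 3 windows, some of which overlap, and *Tnfaip3* had 2, so that these genes had more bases to hold a match than a gene with 1 window. The letters GGANTTTCC, searched on both strands and overlapping the consensus, were found for 4 of the 7 (*Nfkb2*, *Nfkbia*, *Tnfaip2* and *Tnfaip3*), against 1.45% of all genes. A match is a run of letters and was not tested for binding. The 250 bases before the start site are shown for the ligand gene and for the inhibitor gene with the smallest adjusted p for EA, with kB matches in capitals, 5′ to 3′ on the strand of the gene. The *Nfkbia* bases lie at chr12:55492648-55492897 (minus strand) and the *Tnf* bases at chr17:35202008-35202257 (minus strand).
Nfkbia: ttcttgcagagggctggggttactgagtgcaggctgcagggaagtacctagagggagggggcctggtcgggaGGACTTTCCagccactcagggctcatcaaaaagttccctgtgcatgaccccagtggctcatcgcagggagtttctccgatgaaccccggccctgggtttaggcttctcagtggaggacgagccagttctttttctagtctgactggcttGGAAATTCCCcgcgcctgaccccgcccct
Tnf: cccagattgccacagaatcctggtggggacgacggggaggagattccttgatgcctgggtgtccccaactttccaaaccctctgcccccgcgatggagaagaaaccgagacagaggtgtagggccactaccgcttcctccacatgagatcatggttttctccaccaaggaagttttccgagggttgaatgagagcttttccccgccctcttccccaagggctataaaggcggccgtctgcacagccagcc
The *Nfkbia* stretch held a match to the 9 letters from -178 to -170 and a second from -29 to -21, which the consensus extended to -20, where -1 is the base before the start site. The *Tnf* stretch had no match to either set of letters, which says only that these letters are not in this window. Of the other genes, 30 bases around 1 match each are shown, with the match in capitals, at chr10:19015415-19015444 (minus strand) for *Tnfaip3*, chr12:111442564-111442593 (plus strand) for *Tnfaip2*, chr19:46304688-46304717 (plus strand) for *Nfkb2* and chr7:19822734-19822763 (minus strand) for *Bcl3*.
Tnfaip3: tcacgtgactGGAATTTCCatcggaaatcc
Tnfaip2: gtccgccagcGGATTTTCCgcggttgcggt
Nfkb2: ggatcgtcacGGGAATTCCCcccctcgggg
Bcl3: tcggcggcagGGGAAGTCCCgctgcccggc
The match began at -24 in *Tnfaip3*, at -87 in *Tnfaip2* and at -39 in *Nfkb2*. In *Bcl3* it began at base 3 of the transcript, and *Birc3* had no match in its window.

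Between 2627695 and 4235576 reads were counted per mouse. Levels are given as CPM, counts scaled for library size with TMM factors, and SE is the standard error of a log2 fold change. Counts were tested with edgeR's quasi-likelihood test in one fit of 12566 genes, all 10 members among them, and a gene is called where its Benjamini-Hochberg adjusted p is under 0.05. PCR copies cannot be told from separate molecules in these counts.

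Markers of the cells in the tissue differed between groups and between mice of a group, and in whole tissue fewer cells of a type and less RNA per cell cannot be told apart. The 12 neutrophil markers summed to between 6.13 and 9.64 CPM in the control mice, to 2403, 24280 and 26550 CPM in DSS mice 1, 2 and 3, and to between 560.5 and 978.5 CPM in the DSS + EA mice. Their most abundant gene was *S100a8*, with 1730, 15790 and 19170 CPM in the DSS mice, while *Mpo* and *Elane* had 0 counts in DSS mouse 1 and in all control mice. DSS mouse 1 therefore stood apart from the other DSS mice in this list. The 12 colon epithelium markers, led by *Car1*, summed to between 10660 and 27070 CPM in the control mice, to 6154, 2298 and 1117 CPM in the DSS mice and to between 7619 and 14270 CPM in the DSS + EA mice. None of the 12 epithelial markers was at 0 counts in any mouse. The 12 monocyte and macrophage markers, led by *Lyz2*, summed to at most 624.4 CPM in the control mice, to 1658, 2132 and 3288 CPM in the DSS mice and to at most 1297 CPM in the DSS + EA mice. The 8 fibroblast markers, led by *Dcn*, summed to between 764.1 and 831.5 CPM, to between 4108 and 6829 CPM and to between 1627 and 1714 CPM in the same order. The 10 pancreatic acinar markers, led by *Cela2a*, summed to 572.2, 35930 and 17030 CPM in the DSS + EA mice and to at most 261.7 CPM in the others, where *Cela1* held most of the counts. All 10 had counts in each DSS + EA mouse, and *Cela2a* had 256, 17601 and 8226 counts there against at most 2 in any control or DSS mouse. The 6 endothelial markers, led by *Pecam1*, summed to between 30.3 and 41.9 CPM in the control mice, to between 94.3 and 122.5 CPM in the DSS mice and to between 38.4 and 40.0 CPM in the DSS + EA mice. The smooth muscle markers, led by *Tagln*, summed to between 2844 and 3526 CPM in the control mice, to between 1136 and 2176 CPM in the DSS mice and to between 2210 and 2273 CPM in the DSS + EA mice. The B and plasma cell markers, led by *Jchain*, summed to at least 1475 CPM in the control mice, to at most 437.2 CPM in the DSS mice and to 659.3, 420.2 and 788.9 CPM in the DSS + EA mice. The T and NK cell markers, led by *Cd3d* over all mice, summed to 16.26, 11.97 and 22.61 CPM in the control mice, to 11.9, 21.1 and 30.6 CPM in the DSS mice and to 35.0, 31.8 and 35.5 CPM in the DSS + EA mice, which all lay above the others. The part of any of these lists in the results below was not tested. Calls of the 10 genes that change without DSS mouse 1 or without DSS + EA mouse 2 or 3 are named with each gene, and the lists of other genes were not refitted without single mice.

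**Figure D1:**
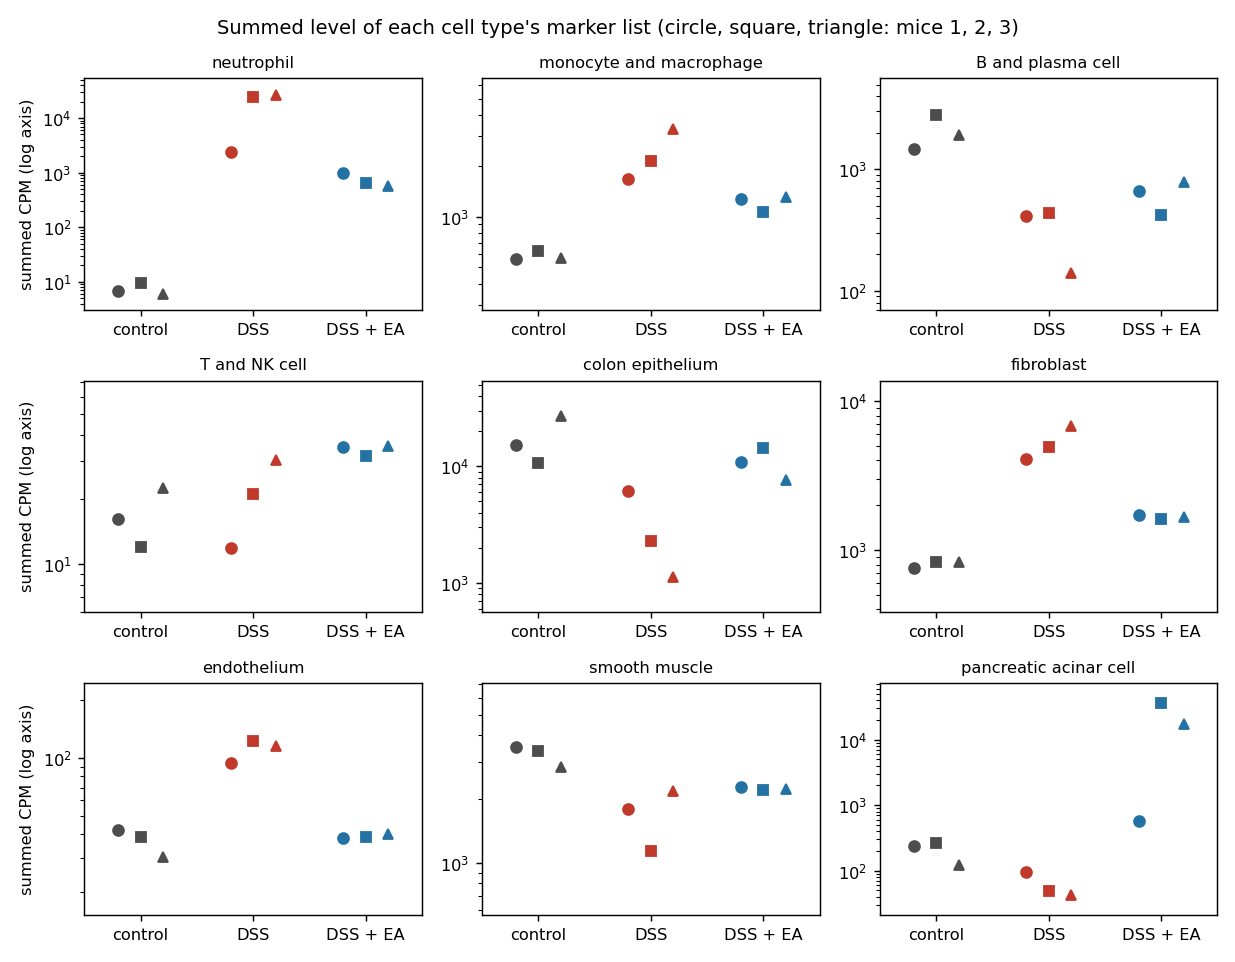
Summed CPM (vertical log axes) of 9 marker lists with 1 point per mouse of each group. DSS mouse 1 had 2403 CPM of neutrophil markers against 24280 and 26550 in the other DSS mice, and DSS + EA mice 2 and 3 had 35930 and 17030 CPM of pancreatic acinar markers.

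With DSS, 7 of the 10 genes rose and 0 fell, against 21.5% of all genes tested that rose and 19.5% that fell. Those that rose were *Tnf*, *Tnfaip3*, *Tnfaip2*, *Nfkbia*, *Nfkbiz*, *Nfkb1* and *Birc3*. By the thresholds of the study for a DEG, a log2 fold change beyond 2.5 and an unadjusted P under 0.01, 4 genes were higher (*Nfkbia*, *Tnf*, *Tnfaip2* and *Tnfaip3*), against 6.62% of all genes. The study used these thresholds with DESeq2, and here they were applied to the edgeR fit. The DSS mice all lay above the control mice in 8 genes, the 7 and *Bcl3*, against 26.2% of all genes. The median log2 fold change of the 10 genes was 1.42, and that of all genes tested was 0.02.
With EA, compared with DSS alone, 5 genes fell (*Nfkbia*, *Tnfaip3*, *Tnfaip2*, *Nfkbiz* and *Birc3*) and 0 rose, against 18.3% of all genes that fell and 17.2% that rose. The same 5 genes had all DSS + EA mice below all DSS mice, against 23.3% of all genes. None was a lower DEG by the thresholds of the study, which 3.50% of all genes were. The median log2 fold change of the 10 genes was -0.94, and that of all genes tested was -0.02.
Compared with the control group, the DSS + EA group had 1 gene called higher, *Tnf*, and 0 called lower, against 3.00% and 0.637% of all genes. *Tnf* was also the 1 higher DEG by the thresholds of the study, which 1.74% of all genes were. All DSS + EA mice lay above all control mice in 6 genes (*Tnf*, *Tnfaip3*, *Tnfaip2*, *Nfkbia*, *Nfkbiz* and *Nfkb1*), against 18.0% of all genes. The comparisons share mice, the DSS mice in the first and the second, the control mice in the first and the third and the DSS + EA mice in the second and the third, so they are not independent of each other.

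**Figure D2:**
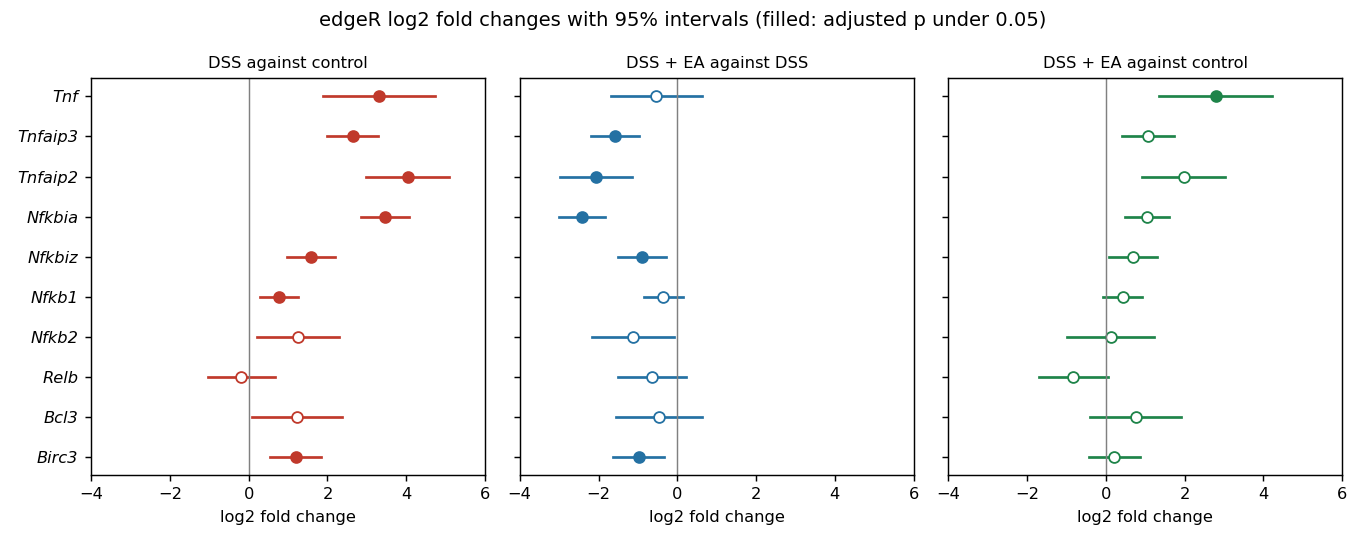
Log2 fold changes of the 10 genes (horizontal axes) in the 3 comparisons, with 95% intervals from the edgeR fit and filled points where the adjusted p is under 0.05. *Nfkbia*, *Tnfaip3* and *Tnfaip2* lie to the right with DSS and to the left with EA, while the interval of *Tnf* with EA runs from -1.69 to 0.62.

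*Tnf* (ENSMUSG00000024401, mm10 chr17:35199381-35202007) encodes the ligand that starts the circuit. It had 1.78, 1.66 and 2.30 CPM in the control mice, from 7, 5 and 6 counts. The DSS mice had 8.04, 14.8 and 35.0 CPM, and the DSS + EA mice had 18.0, 5.98 and 15.5 CPM. All DSS and all DSS + EA mice lay above the control mice, whereas the DSS and DSS + EA mice overlapped, with the lowest level of both groups in DSS + EA mouse 2. The mean level rose with DSS from 1.91 ± 0.339 CPM (SD, n = 3) to 19.3 ± 14.0 CPM (SD, n = 3), or 3.32 on the log2 scale (SE 0.64, edgeR adjusted p = 0.00291). Without DSS mouse 3, which had the highest level, the rise was 2.58 (edgeR adjusted p = 0.00547). With EA the mean was 13.2 ± 6.34 CPM (SD, n = 3), and the log2 fold change against the DSS group was -0.53 (SE 0.52, edgeR adjusted p = 0.444). A fall of *Tnf* with EA was thus not detected with these mice, and the 95% interval from -1.69 to 0.62 holds both a fall and a rise. The study reported significantly less TNF protein with EA in serum (ELISA) and colon (western blot), which is a different measure from RNA. Without DSS mouse 3 that log2 fold change was 0.20. Against the control group the log2 fold change was 2.78 (SE 0.65, edgeR adjusted p = 0.0467), from 18 control counts in all. That call was lost with library totals in place of TMM (edgeR adjusted p = 0.0575), with a mean of at least 20 counts (edgeR adjusted p = 0.0608), with the pancreatic acinar genes left out of the counts (edgeR adjusted p = 0.0508, an alternative chosen after seeing the data) and without DSS mouse 2, any 1 control mouse or DSS + EA mouse 1 or 3. The direction was the same in all 17 refits, with log2 fold changes from 2.47 to 3.12.

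*Nfkbia* (ENSMUSG00000021025, mm10 chr12:55489410-55492647) encodes IkB-alpha, which holds NF-kB in the cytoplasm and is itself induced by NF-kB. It had 84.6, 74.1 and 79.7 CPM in the control mice, 839, 676 and 1103 CPM in the DSS mice and 208, 116 and 164 CPM in the DSS + EA mice. The 3 groups did not overlap, with DSS highest and control lowest. With DSS the level rose 11.0-fold, a log2 fold change of 3.46 (SE 0.27, edgeR adjusted p = 3.33e-05). With EA it was 5.36-fold lower than with DSS alone, or -2.42 on the log2 scale (SE 0.26, edgeR adjusted p = 0.000391). Against the control group the log2 fold change was 1.03 (SE 0.25), with an adjusted p of 0.0558 (edgeR) that passed the threshold in 7 of 17 refits. Among these were the fits without DSS mouse 1 (edgeR adjusted p = 0.041) and without DSS + EA mouse 2 (edgeR adjusted p = 0.0415).

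*Tnfaip3* (ENSMUSG00000019850, mm10 chr10:19000910-19015657) encodes A20, which removes activating ubiquitin chains from the receptor complex. Its levels were 5.34, 10.3 and 8.05 CPM in the control mice, 46.6, 39.5 and 61.5 CPM in the DSS mice and 18.6, 13.8 and 16.8 CPM in the DSS + EA mice. As for *Nfkbia*, the 3 groups did not overlap. It rose with DSS by a log2 fold change of 2.65 (SE 0.29, edgeR adjusted p = 0.000176) and was lower with EA by -1.58 (SE 0.27, edgeR adjusted p = 0.00258). Relative to control mice the value was 1.07 (SE 0.29, edgeR adjusted p = 0.0833), and 1 of 17 refits called it, that of the 2 groups alone.

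*Tnfaip2* (ENSMUSG00000021281, mm10 chr12:111442469-111455018) is a TNF-induced gene first described in endothelial cells. Its levels were 4.07, 2.66 and 3.07 CPM in the control mice, 33.5, 93.4 and 36.8 CPM in the DSS mice and 16.4, 9.34 and 13.3 CPM in the DSS + EA mice. The groups did not overlap, and DSS mouse 2 lay far above the other DSS mice. The log2 fold change was 4.04 with DSS (SE 0.47, edgeR adjusted p = 0.000234) and -2.06 with EA against DSS (SE 0.41, edgeR adjusted p = 0.00488). Without DSS mouse 2 these were 3.41 (edgeR adjusted p = 0.000222) and -1.44 (edgeR adjusted p = 0.00757). Against the control group it was 1.97 (SE 0.48, edgeR adjusted p = 0.0532), and 7 of 17 refits called it, among them DESeq2 (adjusted p = 0.00468) and edgeR without DSS mouse 1 (adjusted p = 0.0308). Of the 6 endothelial markers, 4 rose with DSS and 4 fell with EA against DSS, against 21.5% and 18.3% of all genes. Markers of other cells moved likewise, with 9 of 9 tested neutrophil markers, 8 of 8 fibroblast markers and 10 of 12 monocyte and macrophage markers that rose with DSS, of which lists 8, 6 and 7 genes fell with EA. Some neutrophil markers passed the filter on low counts only through the DSS mice, such as *Camp*, with 4, 1 and 0 control counts and 6, 4 and 2 DSS + EA counts. The filter favoured a rise with DSS for these, and *Csf3r*, *Mpo* and *Elane* were not tested. The part of any of these lists in the result was not tested.

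**Figure D3:**
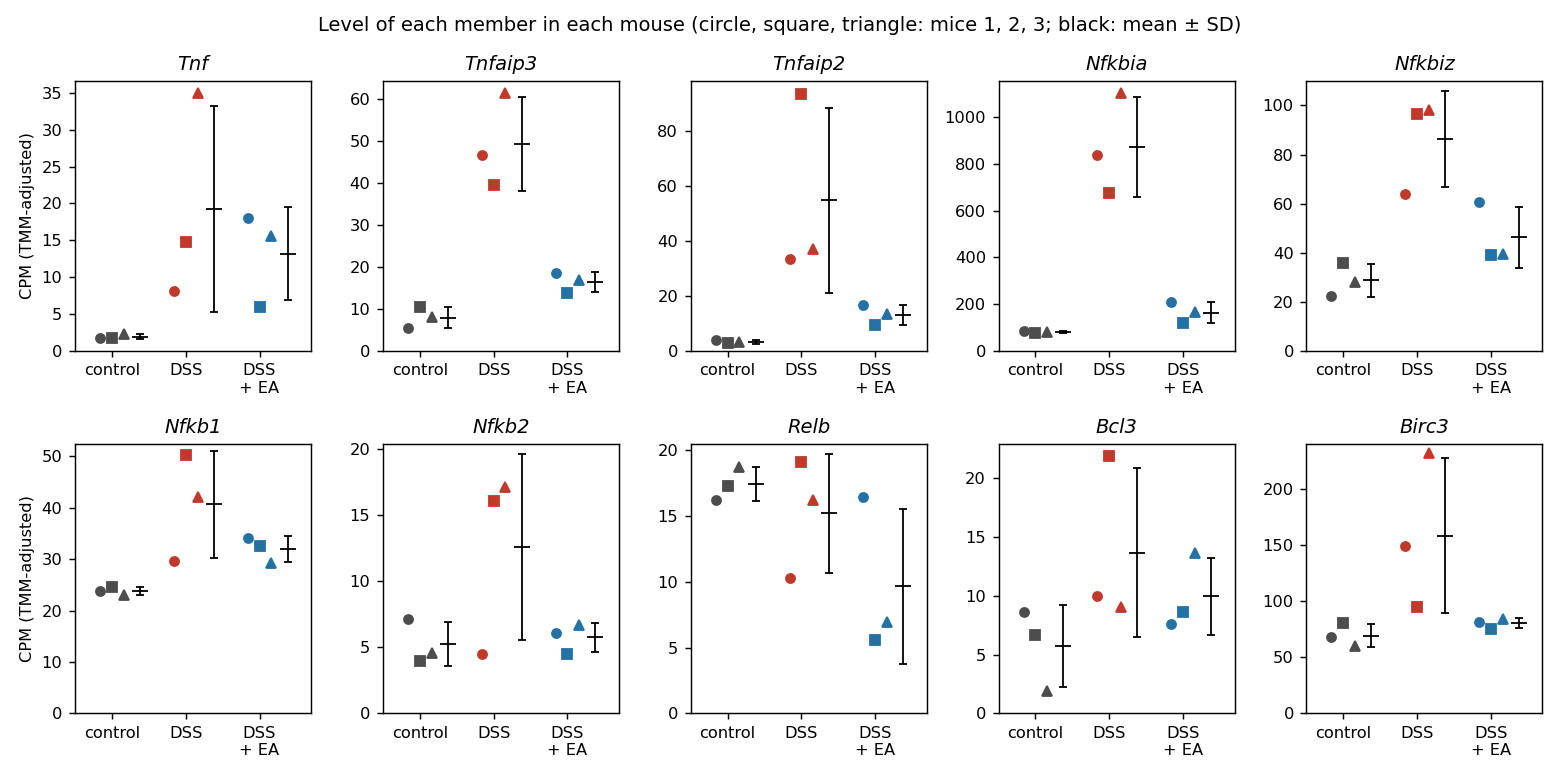
CPM (vertical axes, from 0) of each of the 10 genes in each mouse by group, with the mean ± SD of 3 mice in black. The groups of *Nfkbia*, *Tnfaip3* and *Tnfaip2* do not overlap, those of *Tnf* overlap between DSS and DSS + EA, and those of *Relb* overlap in every comparison.

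*Nfkbiz* (ENSMUSG00000035356, mm10 chr16:55811375-55838899) encodes a nuclear IkB protein that tunes a subset of NF-kB target genes. It had 22.4, 35.9 and 28.0 CPM in the control mice, 63.7, 96.7 and 98.3 CPM in the DSS mice and 60.6, 38.9 and 39.3 CPM in the DSS + EA mice. The groups did not overlap, but DSS + EA mouse 1 lay close to DSS mouse 1. The log2 fold change was 1.59 with DSS (SE 0.28, edgeR adjusted p = 0.00169) and -0.90 with EA against DSS (SE 0.27, edgeR adjusted p = 0.0272). *Birc3* (ENSMUSG00000032000, mm10 chr9:7848699-7873186) encodes cIAP2, a ubiquitin ligase that protects cells from TNF-induced death. It had 67.8, 80.5 and 59.8 CPM in the control mice, 149, 94.7 and 232 CPM in the DSS mice and 81.6, 75.5 and 84.1 CPM in the DSS + EA mice. DSS lay above control and DSS + EA in every mouse, and the latter groups overlapped. The log2 fold change was 1.19 with DSS (SE 0.29, edgeR adjusted p = 0.00955) and -0.98 with EA against DSS (SE 0.29, edgeR adjusted p = 0.026). With 1 mouse left out the EA value of *Birc3* ranged from -1.26 without DSS mouse 2 to -0.59 without DSS mouse 3. The EA calls of *Nfkbiz* and *Birc3* were both lost with only the 2 groups in the fit, with the replicate block, without DSS mouse 3 and without DSS + EA mouse 2 or 3, which left 3 genes called. Over all genes, between 1623 and 2100 fell in those fits, in place of 2295. That of *Nfkbiz* was also lost without DSS mouse 2, and that of *Birc3* without DSS + EA mouse 1. Without DSS mouse 1, *Nfkb1* (-0.50, edgeR adjusted p = 0.0435) and *Nfkb2* were added and 7 genes fell with EA. Of all genes tested, 3011 of 13341 fell in that fit, in place of 2295 of 12566. Some reads of *Birc3* could belong to its close relative *Birc2* (cIAP1).

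The remaining genes encode the subunits and a nuclear cofactor. *Nfkb1* (ENSMUSG00000028163, mm10 chr3:135584655-135691547) encodes p105, the precursor of the p50 subunit, and had 23.9, 24.6 and 23.0 CPM in the control mice, 29.6, 50.2 and 42.1 CPM in the DSS mice and 34.1, 32.5 and 29.2 CPM in the DSS + EA mice. Its rise with DSS was a log2 fold change of 0.77 (SE 0.22, edgeR adjusted p = 0.019), which missed the threshold without any 1 control mouse or DSS mouse 2. DSS mouse 1 was the lowest of its group and lay within the range of the DSS + EA mice. With EA against DSS it was -0.35, with a 95% interval from -0.84 to 0.13. Leaving out 1 mouse gave values from -0.50 without DSS mouse 1 to -0.18 without DSS mouse 2 (edgeR adjusted p = 0.541).
*Nfkb2* (ENSMUSG00000025225, mm10 chr19:46304320-46312385) encodes p100, the precursor of p52 in the non-canonical arm. It had 7.12, 3.99 and 4.60 CPM in the control mice, 4.50, 16.1 and 17.2 CPM in the DSS mice and 6.09, 4.48 and 6.66 CPM in the DSS + EA mice, so the low DSS mouse was mouse 1. Its log2 fold changes were 1.25 with DSS (edgeR adjusted p = 0.0556) and -1.13 with EA against DSS (edgeR adjusted p = 0.0828). Without DSS mouse 1 they were 1.61 (edgeR adjusted p = 0.0024) and -1.49 (edgeR adjusted p = 0.00426). *Psd* overlaps *Nfkb2* on the other strand, and the use of strand in counting was not given in the sources used here.
*Relb* (ENSMUSG00000002983, mm10 chr7:19606217-19629438) encodes the partner of p52. It had 16.3, 17.3 and 18.8 CPM in the control mice, 10.3, 19.1 and 16.2 CPM in the DSS mice and 16.4, 5.60 and 6.98 CPM in the DSS + EA mice. The groups overlapped in every comparison, and the 95% interval with DSS ran from -1.03 to 0.66 on the log2 scale. With EA against DSS the value was -0.65 (edgeR adjusted p = 0.217), and with 1 mouse left out it ranged from -0.35 without DSS + EA mouse 2 (edgeR adjusted p = 0.524) to -1.28 without DSS + EA mouse 1 (edgeR adjusted p = 0.0251), the 1 such fit that called it.
*Bcl3* (ENSMUSG00000053175, mm10 chr7:19808462-19822770) encodes a nuclear cofactor of p50 and p52 homodimers. It had 8.64, 6.65 and 1.92 CPM in the control mice, 9.97, 21.9 and 9.05 CPM in the DSS mice and 7.61, 8.59 and 13.6 CPM in the DSS + EA mice. Its log2 fold change with DSS was 1.23 (SE 0.51, edgeR adjusted p = 0.0798), and control mouse 3 had the lowest level of all mice. Without that mouse the value was 0.81 (edgeR adjusted p = 0.206), and without DSS mouse 2, which had the highest level, it was 0.70 (edgeR adjusted p = 0.316). All DSS mice lay above all control mice, although the gene was not called.

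Within the DSS group, DSS mouse 3 had the highest level in 6 of the 10 genes and DSS mouse 2 in 4, whereas DSS mouse 1 had the lowest in 6. Within the DSS + EA group, mouse 1 had the highest level in 7 genes and mouse 2 the lowest in 8. DSS + EA mouse 2 also had the most pancreatic acinar reads, and a link between these was not tested. The share of all genes with such an order is not given here, so the order is not read as particular to the 10 genes.

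*Tnf* was also read relative to *Nfkbia*, a measure that does not depend on library scaling and was chosen after their values were seen. For each 100 *Nfkbia* reads there were 2.10, 2.24 and 2.89 *Tnf* reads in the control mice. The DSS mice had 0.959, 2.18 and 3.17, and the DSS + EA mice had 8.64, 5.13 and 9.48. All DSS + EA mice lay above all other mice. Against the DSS group this is no result about *Tnf*. *Nfkbia*, the denominator, itself fell with EA, and 82.7% of the other genes tested, with 8 of the 9 members (all but *Tnfaip2*), had more reads per 100 *Nfkbia* reads in every DSS + EA mouse than in every DSS mouse. All DSS + EA mice lay above all control mice for *Tnf* and *Tnfaip2*, as for 2.95% of the other genes tested. For *Tnf* the mean was 2.41 ± 0.417 (SD, n = 3) in the control group, 2.10 ± 1.11 (SD, n = 3) in the DSS group and 7.75 ± 2.31 (SD, n = 3) in the DSS + EA group. Since the values prompted the ratio, they are given as a description, and an exact permutation test of 3 mice against 3 cannot go below p = 0.1.

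**Figure D4:**
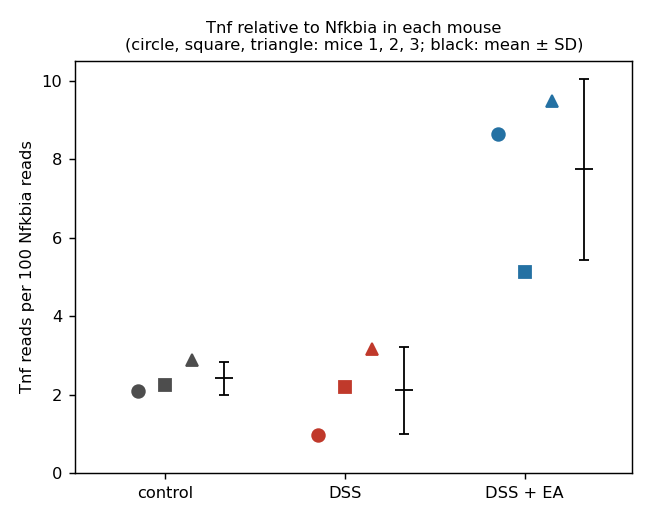
*Tnf* reads per 100 *Nfkbia* reads (vertical axis, from 0) in each mouse, with the mean ± SD of 3 mice per group in black. The DSS + EA mice sit between 5.13 and 9.48, and the control and DSS mice at 3.17 or below.

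The genes whose log2 CPM followed *Tnf* most closely over the 9 libraries were *Myd88*, an adaptor of Toll-like and interleukin-1 receptors (Pearson r = 0.989), *Acod1*, which makes itaconate in activated macrophages (r = 0.987), *Il1b* (r = 0.977), *Bcl2a1b* (r = 0.976) and *Hdc*, which makes histamine (r = 0.974). *Acod1* and *Hdc* averaged 0 CPM in the control mice. The 9 libraries fall into 3 groups, and *Bcl2a1b* belongs to a family of near-identical copies whose reads may be mixed. *Il1b* averaged 1.80 CPM in control mice, 152.4 CPM with DSS and 71.0 CPM with EA. Its log2 fold change with EA against DSS was -1.10 (SE 0.69, edgeR adjusted p = 0.23) and was not called. For its protein, the study reported a significantly lower colon level with EA by western blot. Closest to the mean profile of the 10 genes were *Skil* (r = 0.989), *Ptafr* (r = 0.988), *Il18rap* (r = 0.987), *Ifitm6* (r = 0.987) and *Tgfbr2* (r = 0.985). Of the 10 genes themselves, *Relb* followed *Tnf* least (r = -0.14), and *Nfkbiz* followed it most (r = 0.835).

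Other genes of the pathway were counted in lists, which were chosen with earlier results of these data known. Some of their genes, such as *Tnfsf11*, *Il6* and *Csf3*, passed the filter on low counts only through the DSS mice. For such genes the filter favoured a rise with DSS and a fall with EA. Of the receptor signalling list, 21 of 22 genes were tested, of which 6 rose and 4 fell with DSS, and 4 rose and 5 fell with EA against DSS. With DSS these were 28.6% and 19.0% of the list, near the 21.5% and 19.5% of all genes. With EA they were 19.0% and 23.8%, near the 17.2% and 18.3% of all genes. The median log2 fold changes were 0.42 and -0.24. *Tnfrsf1a*, the main TNF receptor, rose with DSS from 52.5 ± 4.07 to 170.8 ± 62.6 CPM (SD, n = 3), a log2 fold change of 1.70 (edgeR adjusted p = 0.000916), and was 94.9 ± 14.7 CPM (SD, n = 3) with EA, lower than DSS by -0.85 (edgeR adjusted p = 0.0277). *Traf6*, an adaptor ligase, rose by 2.17 and fell by 1.92 on the log2 scale, and *Birc2* rose by 1.38 and fell by 1.20. *Cflar*, which blocks caspase-8 activation, rose by 1.34 and fell by 0.92. The adaptor *Tradd* moved the other way, from 100.8 ± 5.14 CPM in control to 20.1 ± 9.37 CPM with DSS and 80.3 ± 27.2 CPM with EA (SD, n = 3 each), with log2 fold changes of -2.32 (edgeR adjusted p = 0.00102) and 1.99 (edgeR adjusted p = 0.00316). *Rnf31*, the catalytic part of the linear ubiquitin ligase, the death adaptor *Fadd* and *Casp8*, which encodes the protease caspase-8, were also lower with DSS and higher with EA, with log2 fold changes of -1.72 and 2.69, of -1.30 and 1.35, and of -0.89 and 1.60.
Of the non-canonical arm and TNF superfamily, 13 of 20 genes were tested, of which 5 rose and 2 fell with DSS, 2 rose and 3 fell with EA against DSS, and 3 were higher with EA than in the control group. With DSS the shares were 38.5% and 15.4%, against 21.5% and 19.5% of all genes, and with EA they were 15.4% and 23.1%, near the 17.2% and 18.3% of all genes. The 3 above control were 23.1%, against 3.00%. The median log2 fold changes with DSS and with EA against DSS were 1.00 and -0.48. *Tnfrsf12a*, a receptor induced by tissue injury, rose by 2.46 with DSS and fell by 1.85 with EA on the log2 scale. *Cd40*, a receptor of antigen-presenting cells, rose by 2.10 with DSS (edgeR adjusted p = 0.00402) and was 2.71 above control with EA (edgeR adjusted p = 0.00873). *Tnfsf10*, the ligand TRAIL, had 8.38 ± 1.55, 2.27 ± 0.535 and 27.2 ± 10.3 CPM (SD, n = 3 each) without DSS, with DSS and with EA and was thus higher with EA than in both others (log2 fold changes of 3.59 and 1.71, edgeR adjusted p = 0.000386 and 0.0221). *Tnfsf13*, the ligand APRIL, fell by 3.17 with DSS and rose by 2.72 with EA, and *Traf3* rose by 2.26 and fell by 1.82. *Tnfsf9* rose with DSS (fitted log2 fold change 3.40, edgeR adjusted p = 0.000821), from 3, 1 and 3 counts in the control mice. Against a floor of 3 counts per library it was at least 8.39-fold higher. *Tnfsf11*, the ligand RANKL, had 0 counts in the control mice, was at least 5.36-fold higher with DSS against a floor of 3 counts per library, and with EA fell by 2.53 on the log2 scale (edgeR adjusted p = 0.0411), from 10, 21 and 25 counts in the DSS mice to 7, 0 and 1 counts in the DSS + EA mice.
Of the other Rel and IkB proteins, 4 of 5 genes were tested, 3 rose with DSS and the same number fell with EA, which was 75.0% each against 21.5% and 18.3% of all genes, with medians of 1.70 and -1.37. *Rel* rose by 3.03 and fell by 2.20 on the log2 scale, *Rela*, the p65 subunit, rose by 1.10 and fell by 0.77, and the inhibitor *Nfkbie* rose by 2.31 and fell by 1.98.
Of the other negative regulators, all 12 were tested, 6 rose and 0 fell with DSS, and 2 rose and 6 fell with EA. Among all genes 21.5% rose with DSS, and 17.2% rose and 18.3% fell with EA. Compared with the control group, 2 of the 12 (16.7%) were higher with EA, *Ier3* and *Socs3*, against 3.00% of all genes. The medians were 1.22 and -0.91. *Ier3* rose from 11.3 ± 2.10 to 221.7 ± 27.3 CPM (SD, n = 3) with DSS, was 31.9 ± 5.10 CPM (SD, n = 3) with EA, and had log2 fold changes of 4.29 and -2.80 (edgeR adjusted p = 6.96e-06 and 0.000132). It stayed 1.49 above control with EA (edgeR adjusted p = 0.00665). *Socs3*, a brake on cytokine receptor signalling, rose by 4.38, fell by 1.62 with EA and stayed 2.76 above control (edgeR adjusted p = 0.0104). *Zfp36*, which destabilises *Tnf* mRNA, rose by 1.63 and fell by 0.99. *Tnip1*, an A20 partner, rose by 1.24 and fell by 1.28, and the linear deubiquitinase *Otulin* rose by 1.22 and fell by 2.29. *Pdlim2* and *Tnip3* were higher with EA than with DSS, by 1.03 and 1.29.
Of the NF-kB target genes, 25 of 28 were tested, 22 rose and 1 fell with DSS, 2 rose and 15 fell with EA against DSS, and 13 were higher with EA than in the control group, with median log2 fold changes of 3.93, -1.76 and 2.16. The rises with DSS were 88.0% of the list, the falls with EA 60.0% and those above control 52.0%, against 21.5%, 18.3% and 3.00% of all genes. These shares include *Csf3* and *Il6*, which passed the filter on low counts only through the DSS mice. The whole list was chosen with earlier results of these data known, so its shares are not independent evidence of a direction. The study had also singled out *Cxcl1*, *Cxcl5* and *Mmp9*, from these libraries together with human colon biopsies. It measured *Cxcl1* and *Cxcl5* by qRT-PCR as well, and both were lower with EA there. *Cxcl1*, a neutrophil chemokine, had 497.4 ± 154.7 CPM (SD, n = 3) with DSS and 19.2 ± 2.98 CPM (SD, n = 3) with EA, a log2 fold change of -4.69 (edgeR adjusted p = 0.00011). *Csf3* (G-CSF) had 0 counts in the control mice, was at least 222.7-fold higher with DSS against the same floor, and fell by 6.67 with EA. *Il6* fell by 4.23 with EA (edgeR adjusted p = 0.000321) and had 2 counts in all in the control mice. *Vcam1*, an adhesion molecule, rose by 3.52, fell by 0.88 and stayed 2.64 above control (edgeR adjusted p = 0.0018). The 2 genes of the list that rose with EA against DSS were *Irf1* and *Cxcl10*. *Irf1* fell by 0.89 with DSS and rose by 1.35 with EA. *Cxcl10*, with 4, 1 and 2 counts in the control mice, rose by 4.46 with DSS and by a further 1.58 with EA (edgeR adjusted p = 0.0376), from 16.9 ± 11.8 to 50.5 ± 25.2 CPM (SD, n = 3).

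**Figure D5:**
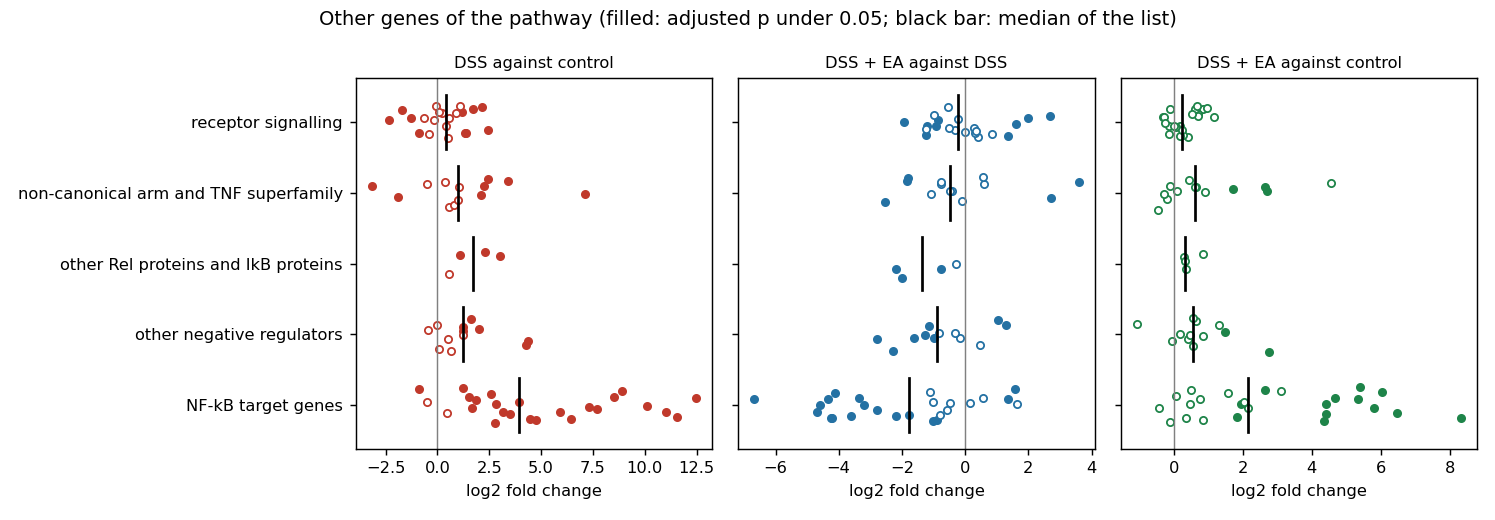
Log2 fold change of each tested gene (points, filled where the adjusted p is under 0.05) of 5 pathway lists in the 3 comparisons, with the list median as a black bar. The NF-kB target genes have a median of 3.93 with DSS and -1.76 with EA against DSS, and the receptor signalling genes have 0.42 and -0.24.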

How the data were processed

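Full-length cDNA from colon RNA of 3 mice per group was PCR-amplified and read on a Nanopore PromethION. The authors deposited raw counts of reads per gene, and the labels name the build mm10. The aligner, the counting tool, the annotation and the use of strand are not given in the sources used here. Of 27733 lines, 14 held no counts and were skipped. Positions come from GENCODE M21, which holds 22022 of 22036 known genes, and promoter sequences from RefSeq (GRCm38.p6).

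The test was that of edgeR 4.0.16 in R 4.3.3 (TMM, filterByExpr by group, a prior count of 0.125, quasi-likelihood F test, 6 residual degrees of freedom) in one fit of all 9 libraries by group. Standard errors are the log2 fold change divided by the square root of F. CPM divides counts by the reads on genes tested times the TMM factor. This denominator was set after library totals had been tried and the values seen. It moved no CPM of the 10 genes by more than 1.33% and no count of genes without overlap among them. The test functions were tested on simulated counts. Alternatives were DESeq2 1.42.0, RLE factors, library totals, no filter, a mean of at least 20 counts, only 2 groups in a fit, the replicate block, each mouse left out, the call rule of the study and, added after seeing the data, pancreatic acinar genes left out. Summaries used pandas 2.3.3 and figures matplotlib 3.10.9, in Python 3.11.15.

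The 10 genes and all lists were chosen with earlier results of these data known. For each pathway list, up to 3 called genes per direction were named by P, for DSS compared with control and for EA compared with DSS, and the 5 genes of highest Pearson r with *Tnf* and with the mean profile. The *Tnf* to *Nfkbia* ratio was added after the values were seen.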

Additional observations from a re-analysis of the deposited data

How the results depend on the processing

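Over 510 recomputed values of the 10 genes in the 3 comparisons, 462 had the same direction and side of the threshold, 25 lost a call, 19 gained one and 4 reversed. *Nfkbia*, *Tnfaip3* and *Tnfaip2* were called in all 17 refits both with DSS and with EA against DSS, while the thresholds of the study called them with DSS and not with EA. The reversed values were *Bcl3* with EA against DSS without DSS mouse 2 (log2 fold change 0.0594), *Tnf* with EA against DSS without DSS mouse 3 (0.203) and *Nfkb2* in DSS + EA against control without control mouse 2 (-0.0399) and without DSS + EA mouse 3 (-0.0341), and the cause was not tested. With 1 mouse left out at a time these 3 ranged from -0.785 to 0.0594, from -0.861 to 0.203 and from -0.0399 to 0.422.

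With the thresholds of the study on the edgeR fit, 1280 genes and 4 of the 10 were called with DSS, in place of 5144 genes. They called 806 genes and 0 of the 10 with EA against DSS, in place of 4457 genes. In DSS + EA against control they called 261 genes, in place of 457. Of the 10 genes with EA against DSS, 3 were called in place of 5 with only the 2 groups in the fit and with the replicate block. In these 2 fits 3139 and 3829 genes were called in all, in place of 4457. *Nfkbiz* and *Birc3* had adjusted p-values of 0.0518 and 0.0611 in the first and of 0.0599 and 0.0506 in the second (edgeR). In DSS + EA against control, 1 of the 10 was called in the fit reported, 3 with DESeq2 (697 genes in all), 2 with RLE factors, 0 with library totals, 3 without a filter, 0 with a mean of at least 20 counts, 4 with only the 2 groups (1149 genes in all) and 0 without the pancreatic acinar genes, chosen after seeing the data. Leaving out 1 mouse gave 6 to 8 of the 10 and 4090 to 6400 genes with DSS, 3 to 7 and 3033 to 6061 with EA against DSS, and 0 to 3 and 110 to 772 in DSS + EA against control. The number called over all genes thus moved between fits as well. These counts of the 10 are therefore not read as a result about them.

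Same-numbered mice are different animals. The correlations of their deviations from the group means lay between -0.16 and 0.105 over 9 pairs, so the numbers were not taken to pair the samples. The control mice had 5 to 7 counts of *Tnf* each.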
